A study of Mus musculus with 36 samples.

Results

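The members are 200 transcripts that had no read in either control RNA library and were read in both RNA libraries taken 2 h after a long, severe osmotic stress was removed. Of 17469 transcripts in at least 1 RNA list, 3229 were unread in the control and 1300 of these were listed in both recovery libraries. The members are the 200 of those 1300 with the highest mean FPKM in the recovery libraries, and the other 1100 are called the other candidates below. FPKM is the number of fragments scaled by transcript length and by the size of the library, so levels can be compared between transcripts. The members were chosen by their measured RNA values in the control and in these recovery libraries, so those values are given as a description, without a test.

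The cells were mouse embryonic fibroblasts of the strain C57BL/6J, connective tissue cells grown from embryos, and no group carried a genetic change. Hyperosmotic stress was given by adding sorbitol to the medium, and the protocols give 3 culture plates per treatment. The 9 conditions were Normal Condition, 500 mOSM 2h, 600 mOSM 2h, 700 mOSM 15min, 700 mOSM 2h, 700 mOSM 15min Recovery 15min, 700 mOSM 15min Recovery 2h, 700 mOSM 2h Recovery 15min and 700 mOSM 2h Recovery 2h. Normal Condition is called the control here, and 700 mOSM 2h Recovery 2h the late recovery. Each condition had 2 RNA-seq libraries of cytoplasmic RNA and 2 Ribo-seq libraries of ribosome footprints, and the labels do not say whether they came from separate cultures. The spread behind each p-value is therefore only that between 2 libraries, and it may be technical.

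Sorbitol draws water out of the cell, which shrinks and crowds its contents. Severe osmotic shock is known to slow both the making of mRNA and its translation, and both resume when normal tonicity returns. RNA seen in the cytoplasm is RNA that has been made, exported and not yet degraded, and footprints show which of it is held by ribosomes.

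The deposited lists give Ensembl transcript identifiers without gene names, and the tables used here do not pair them, so the members are named by their rank in the late recovery. For the same reason the role of each member, the fibroblast markers, the markers of other cell types and the gene lists of stress pathways were not analysed here. Reads were worked back from the FPKM values as the smallest whole numbers that gave them. For a transcript listed in few libraries, the true reads and length could be a multiple of those given, while its FPKM would not change.

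The RNA libraries held 6851961 to 55262422 reads, with the shallowest at 700 mOSM 2h replicate 2. The late recovery libraries listed 15613 and 15948 transcripts, and the other 16 listed 12370 to 14080. The part of these longer lists in the results on the members was not tested. The names of the deposited RNA files labelled 700 mOSM 15min Recovery 2h and 700 mOSM 2h Recovery 15min go with each other's labels. The labels were kept, and results that rest on these libraries are worded accordingly.

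The late recovery gave many more transcripts absent from control RNA than any other condition did. Of the 3229 transcripts unread in the control, 1300 (40.26%) were listed in both of its libraries. At 500 mOSM 2h the same count was 216, at 600 mOSM 2h 129, and at 700 mOSM 15min 111. At 700 mOSM 2h, where replicate 2 was the shallowest library of all, it was 24. After the short stress there were 217 in the libraries labelled 700 mOSM 15min Recovery 15min and 137 in those labelled 700 mOSM 15min Recovery 2h. The libraries labelled 700 mOSM 2h Recovery 15min had 88. All of these counts share the same 2 control libraries, and they rose when a control library was left out. Without control replicate 1, the count was 1866 in the late recovery, 415 at 500 mOSM 2h, 325 at 600 mOSM 2h, 358 at 700 mOSM 15min and 109 at 700 mOSM 2h. The libraries labelled 700 mOSM 15min Recovery 15min then had 556, those labelled 700 mOSM 15min Recovery 2h 327 and those labelled 700 mOSM 2h Recovery 15min 263. Without control replicate 2 it was 1603 in the late recovery and 61 to 395 elsewhere, so the late recovery led in each case, by a smaller factor than with both control libraries.

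The late recovery also led when more reads were required. With at least 5 reads required in both libraries, 430 transcripts remained in the late recovery and 0 to 45 in the other 7 conditions. With at least 20, a limit chosen after seeing the data, 68 remained there and 0 to 2 elsewhere. With all libraries thinned to the depth of the shallowest, the expected count was 912.3 in the late recovery and 88.3 to 212.4 elsewhere. The opposite list, transcripts listed in both control libraries and in neither library of a condition, held 27 in the late recovery and 48 to 384 in the other conditions.

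**Figure D1:**
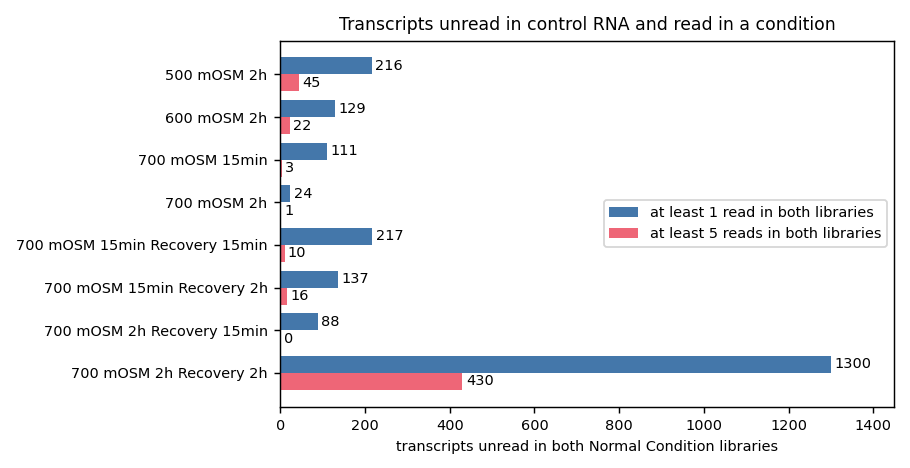
Number of transcripts unread in both control RNA libraries (x axis) that were read in both libraries of each other condition (y axis), at 1 or more reads (blue) and at 5 or more reads (red) per library. The late recovery has 1300 and 430, and no other condition has more than 217 and 45.

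The members were low-level RNAs even in the late recovery. Their mean FPKM there had a median of 0.2617 and a highest value of 3.81, while the median over all transcripts listed in the late recovery was 5.907. Only 9 members were at 1 FPKM or more, 20 were between 0.5 and 1, and 171 were below 0.5. The members held 53.61% of the summed late recovery FPKM of the 1300 candidates. The other candidates had a median of 0.0485 FPKM. At the limit, the members of ranks 198, 199 and 200 had 0.1779, 0.1778 and 0.1772 FPKM, and the next 3 candidates 0.1766, 0.1759 and 0.1759.

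These levels rested on modest numbers of reads. The reads over both late recovery libraries had a median of 28 per member and ranged from 2 to 293, and 36 members had fewer than 5 reads in at least 1 of the libraries. The FPKM of 46 members differed by 2-fold or more between the libraries. Over the members, the log10 reads of the 2 libraries correlated with r = 0.758 (n = 200 transcripts, which share the libraries and their depths). The lengths were short, with a median of 1403 nt (quartiles 873.2 and 2253) against 2480 nt for the other candidates and 2648 nt for all transcripts. FPKM gives a short transcript a higher value for the same reads, and ranking the candidates by reads in place of FPKM kept 115 of the 200.

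The control held 95010911 RNA reads and the late recovery 67225659, so the control was the deeper pair. Against a floor of 3 reads over the pooled control libraries, the late recovery level was at least 10-fold higher for 122 members, with a median bound of 13.19-fold. For 2 members with 3 or fewer late recovery reads no fold is given. Floors and intervals cover counting error only, and the folds leave out the counting error of the late recovery.

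The member of rank 1, ENSMUST00000019060, had 3.77 and 3.85 FPKM in the late recovery libraries (3.81 ± 0.0521, SD, n = 2), from 96 and 109 reads with exact 95% Poisson intervals of 77.8 to 117 and 89.5 to 131. It had 0 reads in both control libraries, and its observed late recovery level was 96.6-fold above the control floor. In the other 14 libraries it had 1 read in a library labelled 700 mOSM 15min Recovery 15min, and 3 and 2 in those labelled 700 mOSM 2h Recovery 15min. All other libraries were at 0, and no library came near the late recovery.

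The member of rank 6, ENSMUST00000051401, was read in the late recovery alone, with 91 and 91 reads (95% interval 73.3 to 112 for each). Its FPKM was 1.58 and 1.42 (1.495 ± 0.114, SD, n = 2), and its observed level was 85.7-fold above the control floor. Its 16 other RNA libraries, control included, were at 0. The member of rank 7 was likewise read in no other condition, with 39 and 41 reads, 1.51 and 1.43 FPKM, and 0 reads in all other RNA libraries.

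The remaining members of the leading 20 were mostly read elsewhere too, at lower levels. Rank 2 had 2.85 and 4.11 FPKM in the late recovery and 0.890 and 0.309 in the libraries labelled 700 mOSM 15min Recovery 2h, its next highest condition. Rank 3 had 2.48 and 1.59 FPKM, and 0.699 and 0.586 at 500 mOSM 2h. Rank 4, with the most reads of any member (120 and 173), had 1.46 and 1.89 FPKM, and 0.416 and 0.0812 at 600 mOSM 2h. For each of these the 2 late recovery libraries lay above all 14 others. Rank 5 had 1.80 and 1.34 FPKM and was read in 10 of the 14 other libraries, at 0.0226 to 0.670.

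Ranks 8 to 17 had late recovery means from 1.187 down to 0.7071 FPKM. Rank 8 (61 and 62 reads) and rank 10 (52 and 52 reads) gave nearly the same reads in both libraries. Rank 9 came closest to another condition, with 0.903 and 1.17 FPKM in the late recovery and 0.307 and 0.878 in the libraries labelled 700 mOSM 15min Recovery 2h. Rank 13 had 0.864 and 0.776 FPKM, and 0.540 and 0.373 at 500 mOSM 2h. Rank 16 (74 and 74 reads) was 24.4-fold above its highest other condition, and ranks 11, 12, 14, 15 and 17 were 3.366-fold to 8.882-fold above theirs.

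Among the leading 20, the late recovery libraries lay above all 14 others for 18 members, and ranks 18 and 19 overlapped with another condition. In scaled FPKM this held for 21.4% of all 14937 transcripts compared, but the members were chosen by their late recovery level, and nothing is read from the count. Rank 18 had 0.844 and 0.455 FPKM in the late recovery and 0.186 and 0.658 at 600 mOSM 2h. Rank 19 had 0.773 and 0.526 FPKM, and 0.107 and 0.748 at 500 mOSM 2h, where 1 library gave 29 reads and the other 3. Rank 20, the longest of the 20 at 5558 nt, had 134 and 105 reads and was 33.25-fold above its highest other condition.

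**Figure D2:**
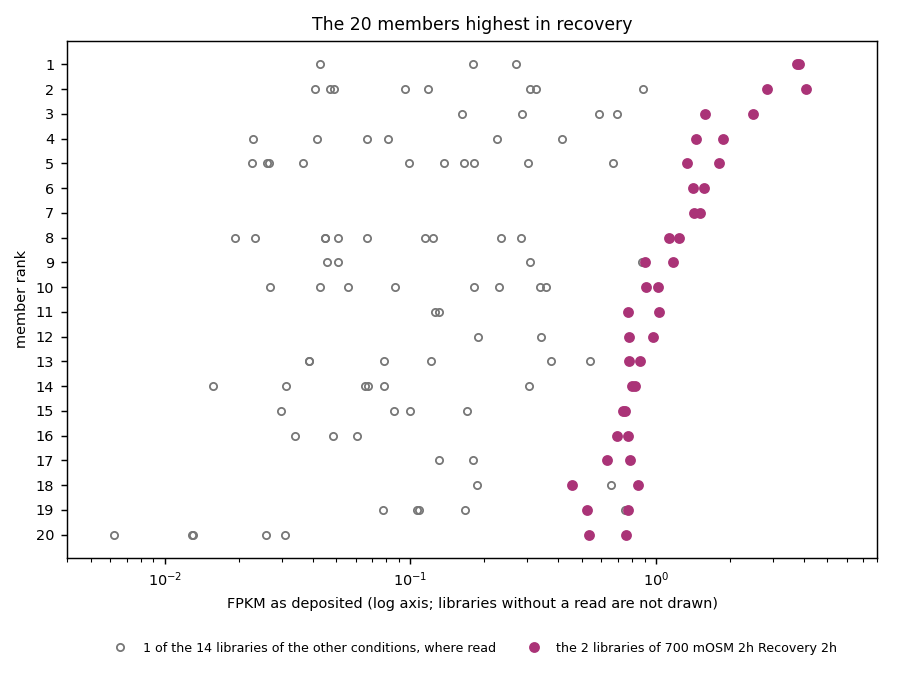
Deposited FPKM (x axis, log scale) of the 20 members with the highest late recovery mean (y axis, by rank), in the 2 late recovery libraries (filled) and in those of the 14 libraries of the other stressed and recovering conditions where the member was read (open). The filled points lie right of all open points for 18 of the 20, with overlap at ranks 18 and 19, and ranks 6 and 7 have no open point.

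Summed over the members, the late recovery stood apart from all other conditions. Its libraries had 131 and 124 member reads per 1e6 reads (127.5 ± 5.23, SD, n = 2). The next highest condition was 500 mOSM 2h, with 17.5 and 16.8 (17.13 ± 0.517), and the late recovery was 7.443-fold above it. Both values for the late recovery and for the control follow from the rule and are not tested.

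The other conditions, which the rule did not use, ordered as follows. After 500 mOSM 2h came the libraries labelled 700 mOSM 15min Recovery 2h with 8.79 and 9.34 member reads per 1e6 reads, then 600 mOSM 2h with 6.70 and 8.43. Both libraries at 500 mOSM 2h lay above all others, and the next 2 pairs did not overlap. The libraries labelled 700 mOSM 2h Recovery 15min had 5.26 and 5.93, and those labelled 700 mOSM 15min Recovery 15min 4.63 and 4.61. At 700 mOSM 15min the values were the lowest, 3.37 and 3.28. At 700 mOSM 2h they were 3.66 and 8.17, the higher one in the shallowest library, so its mean of 5.914 ± 3.19 cannot be placed among its neighbours. With 2 libraries against 2, an exact permutation test of a single sum could not reach 0.05, and none was run.

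**Figure D3:**
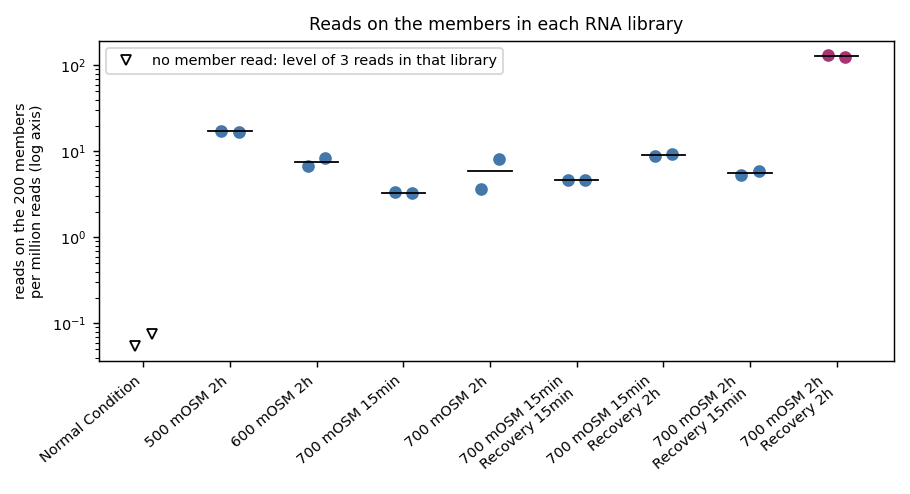
Reads on the 200 members per 1e6 reads of the library (y axis, log scale) in each RNA library (points) of the 9 conditions (x axis), with the mean of the 2 libraries as a line. No member was read in the control by the rule, and open triangles mark the level of 3 reads there. The late recovery libraries are at 131 and 124, and those at 500 mOSM 2h at 17.5 and 16.8.

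Most members were read somewhere outside the late recovery, but by few reads. Of the 200, 34 (17%) had no read in the 14 libraries of the other conditions, 82 were read in 1 to 3 of them, and 84 in 4 or more, 8 of these in 10 or more. Among the other candidates, which are lower, 282 (25.64%) had none. The median member had 7 reads over these 14 libraries together, out of 353456149. Of all the values above 0 there, 188 of 663 were a single read. Late recovery reads came from both libraries for all members by the rule.

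The count of members in both libraries of a condition was highest at 500 mOSM 2h, with 44, followed by 31 in the libraries labelled 700 mOSM 15min Recovery 15min. It was 24 in those labelled 700 mOSM 15min Recovery 2h, 22 at 600 mOSM 2h, 16 at 700 mOSM 15min and 15 in the libraries labelled 700 mOSM 2h Recovery 15min. At 700 mOSM 2h it was 7. The highest of the 7 other conditions was 500 mOSM 2h for 54 members and the one labelled 700 mOSM 15min Recovery 2h for 29, and the others led for 10 to 25 members each. These counts depend on depth. At the depth of the shallowest library, the members expected in at least 1 library of a condition ranged from 30.3 at 700 mOSM 15min to 75.4 at 500 mOSM 2h, and 193.1 in the late recovery.

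Where a member had at least 10 reads in a condition, the reads could be unevenly split between the libraries. In the late recovery, 185 members had that many, and all were read in both libraries because the rule required it. That count therefore shows nothing about agreement, and the rule also limits the members' late recovery spread given below. At 500 mOSM 2h, 26 of 28 such members were read in both. At 600 mOSM 2h this held for 12 of 17, and in the libraries labelled 700 mOSM 15min Recovery 2h for 10 of 15. The spread between paired libraries, as a mean chi-square with 1 degree of freedom, was 2.154 for the members in the late recovery, 4.69 at 500 mOSM 2h, 5.266 at 600 mOSM 2h and 6.581 in the libraries labelled 700 mOSM 15min Recovery 2h. For all transcripts with 10 to 300 reads in the pair it was 2.505, 3.83, 5.449 and 4.863, so the uneven split was not limited to the members. The control pair had the largest value of the 9 conditions, 6.034, and 155 of its 2795 such transcripts were read in 1 library only. The control floors used for the folds above do not cover that spread.

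In scaled FPKM, both late recovery libraries lay above all 14 others for 160 members (80.0%), beside the same 21.4% of all transcripts. This count uses the contrast in the rule, and nothing is read from it. For 507 of the other candidates (46.09%) the same was true. At the other end, 78 members reached at least 25% of their late recovery level in some other condition, and 27 exceeded their late recovery mean in at least 1 other library.

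**Figure D4:**
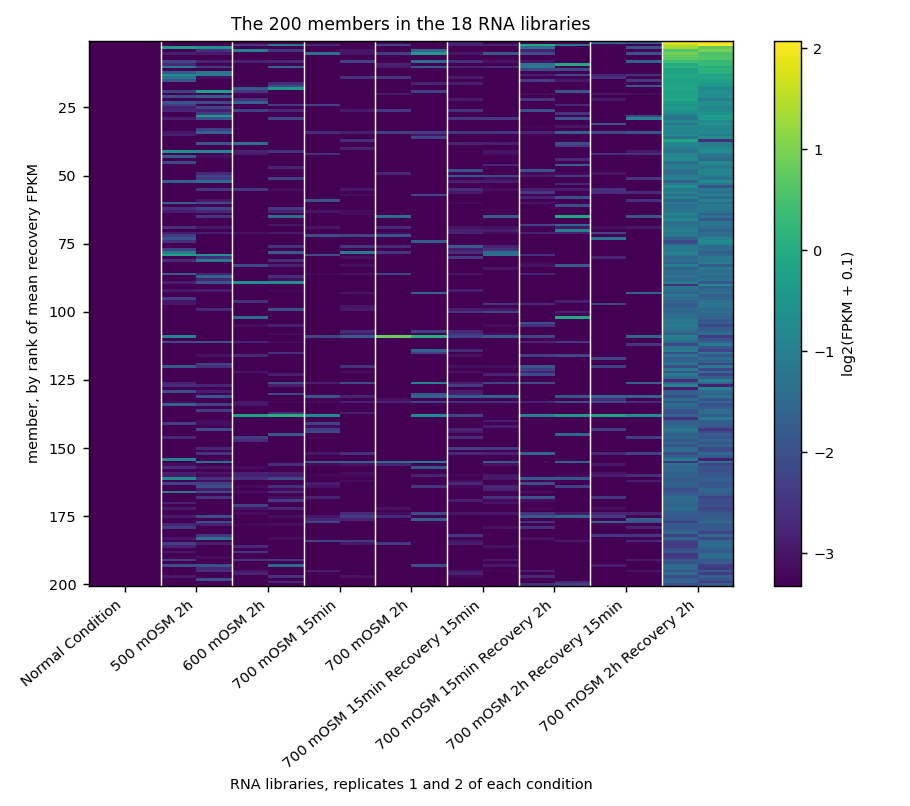
log2(FPKM + 0.1) of the 200 members (y axis, by rank) in the 18 RNA libraries (x axis, replicates 1 and 2 of each condition side by side). The control columns are at 0 reads by the rule. The late recovery columns are filled for all members, and in the other columns most cells are at 0, with single members standing out, such as ranks 138 and 109.

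By mean scaled FPKM over the 14 libraries that the rule did not use, the highest member was rank 138, a short transcript of 276 nt. It was read in 9 of the 14, with 0.755 and 0.952 FPKM (6 and 10 reads) at 600 mOSM 2h, against 0.228 and 0.205 (2 and 2 reads) in the late recovery. The second was rank 109, of 309 nt, with 1.67 and 0.945 FPKM (12 and 2 reads) at 700 mOSM 2h and 0.407 and 0.0914 in the late recovery. For both, the late recovery was below another condition, and the high FPKM stood for few reads on a short length.

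The next were ranks 2, 155, 65, 79, 5, 3, 131 and 78. Rank 79 had 0.743 and 0.540 FPKM (16 and 16 reads) at 500 mOSM 2h and 0.367 and 0.247 in the late recovery. Rank 65 had 10 reads (0.823 FPKM) in 1 library labelled 700 mOSM 15min Recovery 2h and none in the other. Rank 155 had 34 reads spread over 7 of the 14 libraries and rank 131 24 reads over 9. Their late recovery levels were 0.5995 and 1.015 times those of their highest other condition, and rank 78 was at 1.585 times. These ranks thus mixed leading members that were higher in the late recovery with members that were not.

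RNA was compared between the 7 conditions that the rule did not use, with limma's moderated test on log2(scaled FPKM + 0.1), fitted over 14264 transcripts and adjusted by the Benjamini-Hochberg method. Only the 84 members read in at least 4 of the 14 libraries were tested, and 116 were not. Some members, ranks 3, 9, 52, 60 and 72 among them, were read in exactly 4. Ranks 50, 79 and 116 were read in 5. All these ranks passed the filter only through the pair of libraries in which they were then called higher. For these and any others like them, the filter used the same values as the test, so their p-values are no independent support. Log2 changes are on that scale and understate changes of such low transcripts. The 8 comparisons share groups. They gave 37 calls (5.51% of 672 member tests) on 18 members at an adjusted p under 0.05, where 32.8% of all 114112 tests passed. Of the 37, 28 had at least 10 reads in the higher group, a limit chosen after seeing the data. In limma's voom test on the recovered reads, 20 of the 37 passed.

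The comparison of 700 mOSM 2h with 500 mOSM 2h, which asks how RNA differs with the strength of the stress, gave the most calls among the members. Of the 84, 9 fell and 1 rose, while 24.1% of all transcripts tested were lower and 14.6% higher. The members' median log2 change was -0.33, that of all transcripts -0.10. Rank 41 had 31 and 35 reads (0.583 and 0.478 FPKM) at 500 mOSM 2h and 0 at 700 mOSM 2h, a log2 change of -2.63 (SE 0.31, limma adjusted p = 3.1e-05, range over the alternatives 3.2e-06 to 0.01). Rank 13 had 21 and 20 reads against 0 (-2.44, SE 0.33, limma adjusted p = 9.8e-05, range 1.8e-05 to 0.013), and rank 3 had 13 and 15 against 0 (-2.87, SE 0.63, limma adjusted p = 0.003, range 0.00055 to 0.016). At 700 mOSM 2h these 3 were read in neither library, while their reads in both late recovery libraries follow from the rule. Rank 3 passed the filter only through its 500 mOSM 2h pair, as did ranks 79, 52 and 60 below.

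The other 6 that fell, ranks 79, 52, 166, 161, 60 and 111, likewise had 0 reads in both libraries at 700 mOSM 2h. At 500 mOSM 2h they had 11 to 35 reads over both libraries, and their log2 changes ran from -2.85 for rank 79 to -1.26 for rank 111. Rank 109 rose by 2.58 (SE 0.85, limma adjusted p = 0.031, range 0.0016 to 0.17), from 3 and 0 reads to 12 and 2. The 700 mOSM 2h pair includes the shallowest library. Without replicate 1 of 700 mOSM 2h, 16 members were called, 7 of them higher.

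Length of stress gave few calls. Between 700 mOSM 2h and 700 mOSM 15min, 1 member rose and 1 fell, while 13.6% of all transcripts tested were higher and 18.6% lower. Rank 109 rose by 2.48 (SE 0.78, limma adjusted p = 0.03, range 0.0013 to 0.27) from 1 and 2 reads. Rank 184 fell by 0.99 (SE 0.31, limma adjusted p = 0.028, range 0.0096 to 0.24), from 4 and 4 reads to 0. With either library of 700 mOSM 15min left out, there were 0 calls, and without replicate 1 of 700 mOSM 2h there were 5.

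The libraries labelled 700 mOSM 15min Recovery 2h were higher than those labelled 700 mOSM 15min Recovery 15min for 7 of the 84 members and lower for 0, against 13.8% and 17.3% of all transcripts tested. At an unadjusted p under 0.05, limma gave 9 members higher and 2 lower, and voom called 5 higher and 0 lower. Rank 9 rose from 0 to 8 and 22 reads, a log2 change of 2.65 (SE 0.32, limma adjusted p = 7.8e-05, range 1.9e-05 to 0.031). Rank 2 rose from 1 and 1 reads to 18 and 6 (2.14, SE 0.42, limma adjusted p = 0.0022, range 0.00097 to 0.047), and rank 175 from 0 to 8 and 10 (1.64, SE 0.35, limma adjusted p = 0.0039, range 0.0014 to 0.055). Ranks 161 and 116 rose by 1.29 and 0.95, and the 2 smallest calls, ranks 13 and 111, had 8 reads each. With either library of 700 mOSM 15min Recovery 15min left out, 2 members were called.

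Ranks 2 and 9 were among the leading members of the late recovery. They also had more reads in the libraries labelled as 2 h after the short stress than in those labelled 15 min after it. Rank 9 passed the filter only through the former libraries, so its p-values in comparisons with them are no independent support. The next comparison shares the libraries labelled as 2 h after the short stress. Against the libraries labelled 700 mOSM 15min Recovery 2h, those labelled 700 mOSM 2h Recovery 15min were lower for 6 members and higher for 0, with 16.3% and 18.6% over all transcripts tested. Limma gave 7 lower and 3 higher at an unadjusted p under 0.05, and voom 2 lower and 0 higher. Ranks 2 and 9 fell by 2.66 (SE 0.49, limma adjusted p = 0.0012) and 2.65 (SE 0.37, limma adjusted p = 0.00019), with ranges of 0.00051 to 0.046 and 3.1e-05 to 0.047, both to 0 reads. The other 4 were ranks 161, 175, 116 and 111. Without replicate 2 of 700 mOSM 2h Recovery 15min, 3 members were called.

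Set against 700 mOSM 2h, the libraries labelled 700 mOSM 15min Recovery 2h were higher for 3 members and lower for 1, beside 17.8% and 8.17% of all transcripts tested. Ranks 9, 2 and 116 rose, by 2.37, 2.09 and 1.08, and rank 109 fell by 3.27. Ranks 9 and 116 passed the filter only through the libraries in which they rose. Without replicate 1 of 700 mOSM 2h, 7 were called. The files' names attach these libraries to the other label, and which label is right was not tested.

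The earliest recovery points gave few calls. From 700 mOSM 15min to the libraries labelled 700 mOSM 15min Recovery 15min, 2 members rose and 2 fell, and 28.4% and 17.2% of all transcripts tested did so. Rank 50 rose from 0 to 6 and 5 reads (1.30, SE 0.25, limma adjusted p = 0.001, range 0.00034 to 0.045), and the other 3, ranks 52, 72 and 184, had 2 to 8 reads in the higher group. Ranks 50, 52 and 72 passed the filter only through the pair called higher, so their p-values are no independent support. With either library of 700 mOSM 15min Recovery 15min left out, there were 2 calls, and without replicate 1 of 700 mOSM 15min there was 1.

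From 700 mOSM 2h to the libraries labelled 700 mOSM 2h Recovery 15min, 1 member rose and 1 fell, beside 27.4% and 18.6% of all transcripts tested. These were rank 177, from 0 to 3 and 2 reads, and rank 109, from 12 and 2 to 0 and 1. Without replicate 1 or 2 of 700 mOSM 2h there were 6 and 7 calls, and without replicate 1 of the recovery libraries 1. Between the libraries labelled 15 min after the long and the short stress, 1 member was higher and 1 lower, beside 3.83% and 4.23% of all transcripts tested. They were ranks 177 and 50, with 5 and 11 reads in the higher group. Neither call passed with any 1 of these 4 libraries left out, and voom called 0.

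Footprints, which the rule did not use, were listed for 25 of the 200 members. Ribosome footprints are the mRNA stretches that ribosomes shield from RNase, given as RPKM, reads scaled by coding length and library size. Paired footprint libraries differed by hardly more than counting noise (mean chi-square per degree of freedom 1.014 to 1.328 for transcripts of 40 or more reads per pair). Each pair was treated as a single sample, without a replicate error or a test. The footprint lists almost never held a transcript under 5 reads, so a member not listed had too few footprints for listing and was not necessarily at 0.

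Most members with listed footprints had them in the late recovery. There, 23 members were listed in at least 1 footprint library and 12 in both, with 169 and 156 reads. The other 8 conditions together held 163 footprint reads on the members, 141 of them on 1 member in 1 library of 600 mOSM 2h, whose other library listed none. In the control 1 member was listed, with 8 reads in 1 library, although the control footprint libraries were deeper (7248764 and 7580229 reads against 4621309 and 4626359). In 700 mOSM 15min Recovery 2h, with 8738548 and 9108030 reads, 2 members were listed, with 9 and 5 reads. At 500 mOSM 2h, 700 mOSM 15min, 700 mOSM 2h and both 15 min recoveries no member was listed. The libraries at 700 mOSM were shallow, with at most 1079130 reads, while those at 500 mOSM 2h had 4300768 and 4321522, near the late recovery. For 22 members the late recovery was the sole condition with listed footprints. The members were chosen for RNA there and for none in the control, so nothing is read from this count.

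**Figure D5:**
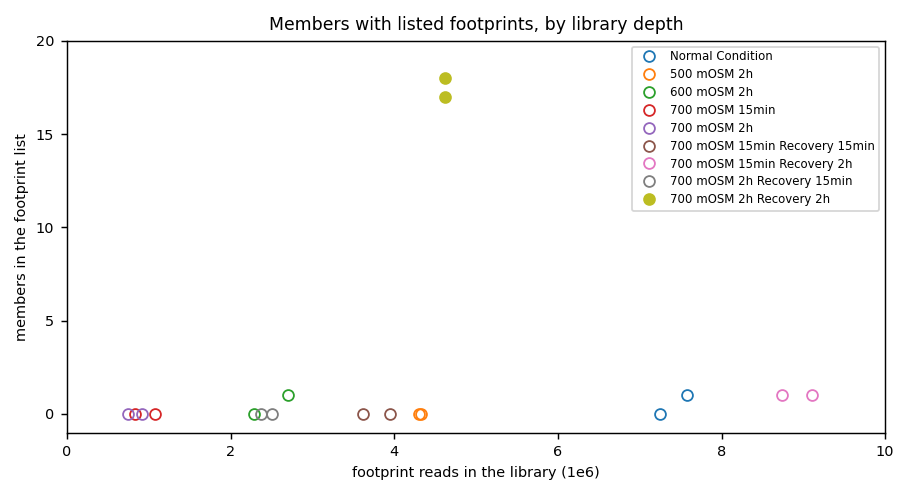
Number of members in the footprint list (y axis) of each of the 18 Ribo-seq libraries against its depth (x axis, 1e6 footprint reads), coloured by condition. The late recovery libraries have 17 and 18 members, and every other library has 0 or 1, the deeper control and short-stress recovery libraries included.

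By rank, the listed footprints fell mostly on the members with the highest RNA. Of the members of ranks 1 to 20, 7 were listed in at least 1 late recovery footprint library and 5 in both. For ranks 21 to 50 it was 9 and 7 of 30. For ranks 51 to 200 it was 7 and 0 of 150. Over all transcripts in an RNA list, 57% had footprints in both late recovery libraries, and over those unread in the control 0.403% did, of which the members made up 12 of 13. The other candidates, with lower RNA, had 8 listed in at least 1 library and 1 in both.

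The members were set beside transcripts of the same late recovery RNA range that were listed in both control libraries, as a description of 1 sample without a test. In the FPKM range of ranks 21 to 50 (0.3672 to 0.6401), 23.3% of the members and 22.3% of 538 such transcripts were listed in both footprint libraries. In the range of ranks 1 to 20 it was 25% against 68.4% of 2343, whose median RNA level of 1.903 FPKM was above the members' 0.9347. In the range of ranks 51 to 200 it was 0% against 9.8% of 592. The members were shorter, with 1325 to 1423 nt at the median against 2679 to 3134 nt, and had fewer RNA reads at the same FPKM. The part of length and depth in these shares was not tested.

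By mean footprint RPKM over the 18 Ribo-seq libraries, the highest member was rank 200, whose 141 footprint reads all lay in 1 library of 600 mOSM 2h, with none listed in the other. It had no RNA read there, and no footprints listed in the late recovery, so the members' highest value rests on 1 library. Next was rank 1, with 9 and 12 footprint reads (9.14 and 12.2 RPKM) on 71 codons in the late recovery. Rank 6, read in RNA in the late recovery alone, had 24 and 16 footprint reads (8.20 and 5.46 RPKM) on 211 codons, and no listed footprints elsewhere.

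Rank 4 had 11 and 8 footprint reads, rank 8 had 24 and 17, and rank 2 had 5 and 3, none with listed footprints in another condition. Rank 18 had 8 in 1 library, and rank 50 had 5 and 6. Rank 42 had 16 and 19 on 619 codons in the late recovery and 5 in 1 library of 700 mOSM 15min Recovery 2h. Rank 65 was the exception among these 10, besides rank 200, with 8 reads in 1 control library and 9 in 1 of 700 mOSM 15min Recovery 2h and none listed in the late recovery. Rank 7, at 0 in all other RNA libraries like rank 6, had no listed footprints.

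For the 12 members with footprints in both late recovery libraries, the ratio of mean RPKM to mean FPKM ran from 1.036 to 6.351 with a median of 2.916. Since a low RNA enters the footprint lists only with enough footprints, these 12 are the members whose ratio was high enough to be seen, and nothing is read from their median.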

How the data were processed

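The authors deposited 1 list per library of transcript identifiers with a value: RPKM for the 18 Ribo-seq and FPKM for the 18 RNA-seq libraries. Per the submitters' processing notes, the tools were cutadapt, Bowtie and STAR, and the build was GRCm38. Tool versions, annotation and counting rules were not given in the sources used here. All members, lists and tests were chosen with earlier results of these data known. Total reads, lengths and whole reads were solved from the steps of the deposited values (whole within a relative tolerance of 1e-09), and the steps were tested on simulated data. An unlisted transcript was set to 0. RNA values were divided by median-ratio size factors over 5705 transcripts and tested with limma 3.58.1 in R 4.3.3 on log2(scaled FPKM + 0.1), over 14 libraries of 7 conditions, for transcripts above 0 in at least 4, with a mean-variance trend, a weight per group and two-sided tests at an adjusted p of 0.05. Members with values were the 20 highest in the late recovery, the 10 highest over the 14 other RNA libraries, up to 5 calls per direction and comparison, the 10 highest in footprints and 3 on each side of the limit of 200, and others were added where a count was small. Alternatives covered pseudocount, scaling, filter, weights, libraries fitted, voom, the replicate number as a block and each library left out. Paired RNA libraries of different conditions with the same number did not deviate together, over transcripts read in all 14 libraries, which included no member.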

Additional observations from a re-analysis of the deposited data

How the results depend on the processing

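Of 481 refits of the 37 called changes of single members, 367 passed the threshold in the same direction, 114 did not, and 0 changed direction. Of 112 refits of the counts of called members in the 8 comparisons, 67 stayed within 1.5 times the main count and 45 did not. The cause was not tested unless the setting itself gives it. Main counts were 2 for 700 mOSM 2h against 700 mOSM 15min, 10 for 700 mOSM 2h against 500 mOSM 2h, 2 for 700 mOSM 2h Recovery 15min against 700 mOSM 2h, 4 for 700 mOSM 15min Recovery 15min against 700 mOSM 15min, 7 for 700 mOSM 15min Recovery 2h against 700 mOSM 15min Recovery 15min, 6 for 700 mOSM 2h Recovery 15min against 700 mOSM 15min Recovery 2h, 4 for 700 mOSM 15min Recovery 2h against 700 mOSM 2h and 2 for 700 mOSM 2h Recovery 15min against 700 mOSM 15min Recovery 15min. In that order, these are called the comparisons A to H. A pseudocount of 0.01 gave 0 for A and 1 for C, and one of 1 gave 4 for E. With no filter on low values, which tests more members, B had 19, D 7, E 14, F 11, G 9 and H 6. Equal weights gave 5 for C, 8 for G and 0 for H. Fitting only the groups compared gave 5 for C, 8 for D, 2 for G and 0 for H. Voom gave 1 for A, 1 for C, 1 for D, 2 for F, 2 for G and 0 for H. Calls with at least 10 reads, chosen after seeing the data, left 1 each for A, C, D and H. FPKM as deposited and a fit over all 18 RNA libraries kept every count within 1.5 times. A filter of a mean scaled FPKM of at least 2 left no member to test. Leaving out each replicate in turn gave 0 to 5 for A, 12 to 16 for B, 1 to 7 for C, 1 to 4 for D, 2 to 7 for E, 3 to 6 for F, 4 to 7 for G and 0 to 1 for H. The remaining library of such a pair is assumed to vary like the other groups.

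With the replicate number as a block, comparisons A to H had 2, 10, 3, 3, 7, 4, 4 and 1 called members. Same-numbered libraries of the 7 conditions did not deviate together over 9272 transcripts read in all 14 libraries at a mean scaled FPKM of at least 2. No member was among these transcripts. Over 21 pairs of conditions the correlations of the libraries' deviations ran from -0.113 to 0.133, and 1 was over 0.1. Such values cannot exclude a shared culture or preparation whose effect was small or differed between conditions.

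The 1300 candidates became 430 with at least 5 reads in both libraries and 68 with at least 20, a limit added after seeing the data, since fewer reads fail, and 1603 to 1866 without a control replicate. Ranking by reads kept 115 of the 200 members, and ranking on 1 late recovery library kept 160 to 167. Thinned to the shallowest library, members read at 600 mOSM 2h became 47.7, at 700 mOSM 15min 30.3 and at 700 mOSM 15min Recovery 15min 41.6. Members with late recovery footprints were 12 when both libraries were required and 17 to 18 with 1 library. Depth limits all of these: most members had fewer than 10 reads in every library outside the late recovery.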
